A study of Homo sapiens with 4 samples.

Results

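The BCL2 family sets whether a cell keeps its mitochondria intact or opens them and dies. A total of 10 genes of this family were followed in A549 cells, by matching their symbols in the deposited tables, out of 25192 genes listed. They fall into 3 pro-survival genes (BCL2, BCL2L1 and MCL1), 2 effectors (BAX and BAK1) and 5 BH3-only genes (BID, BCL2L11, BBC3, PMAIP1 and BAD). All 10 passed the filter on low counts, as did 14099 genes in all.

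A549 is an established human lung adenocarcinoma cell line. RNA was taken 48 h after infection, giving 2 libraries with the empty virus (EV) and 2 with the FCN3 virus. Both viruses derive from the pLZRS-IRES-GFP retroviral vector, and EV expresses only GFP, while the FCN3 virus adds full-length FCN3 with a V5 epitope. FCN3 is a secreted lectin of the complement pathway. The comparison asks which transcripts change when these cells are made to express it. All libraries come from a single cell line, and the sources used here state neither separate infections nor a sort of the transduced cells, so p-values measure only the spread between these libraries. In such bulk samples, fewer cells with a transcript and less of it per cell cannot be told apart.

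Proteins of this family share short sequence motifs called BH domains. The pro-survival proteins hold the effectors in check at the outer mitochondrial membrane. The BH3-only proteins are stress sensors that bind the pro-survival proteins, and some of them also switch on the effectors directly. Active BAX and BAK1 form pores through which cytochrome c leaves the mitochondrion and starts the caspase cascade. In cells under ER stress, the transcription factors ATF4 and DDIT3 (CHOP) are known to act on several BH3-only genes.

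FCN3 itself was listed at 1 and 0 expected counts in EV replicates 1 and 2, against 722388 and 448352 with the FCN3 virus. The libraries held between 16353554 and 35733735 expected counts, replicate 1 being the deeper one in both groups. In transcripts scaled for length and depth to a total of 1000000 a library (TPM), keratins were high in every library (KRT18 between 1612 and 2363 TPM), but EPCAM did not exceed 3.65 TPM and the 4 markers of alveolar type II cells summed to at most 0.08 TPM. Of 10 markers of leukocytes, fibroblasts and endothelium, CD68 and COL1A1 were the only genes above 0.41 TPM in any library, and PTPRC, CD3E, DCN and PECAM1 were at or below 0.01 TPM. COL1A1, a collagen gene, stood at 3.39 and 8.12 TPM in EV replicates 1 and 2 and 2.70 and 7.87 TPM with FCN3, higher in replicate 2 of each group. The 10 summed to 37.5 and 44.3 TPM in EV and to 64.7 and 58.1 TPM with the FCN3 virus. CD68, a lysosomal protein gene made by many cell types, was most of that sum, at 33.9, 35.7, 61.9 and 49.8 TPM in the same order.

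The members spanned a wide range of levels. In TPM, which compares genes per length, BAX was the highest member in all 4 libraries, at 412.63 and 407.31 in EV replicates 1 and 2 and 422.45 and 419.85 in FCN3 replicates 1 and 2. BCL2L1, which encodes BCL-XL, came next at 224.01 and 210.28 in EV and 226.70 and 241.28 with FCN3. MCL1, a short-lived pro-survival protein, and BAD, a BH3-only protein regulated by growth factor kinases, followed and did not differ beyond their spread in EV (104 ± 11.1 and 99.6 ± 1.63 TPM, SD, n = 2). BCL2, the founding gene of the family, was the lowest member in every library, at 1.03, 0.88, 0.53 and 0.53 TPM. BAX alone made up 42.8% to 44.4% of the summed TPM of the members, BCL2L1 22.9% to 24.97%, and BCL2 at most 0.107%.

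**Figure D1:**
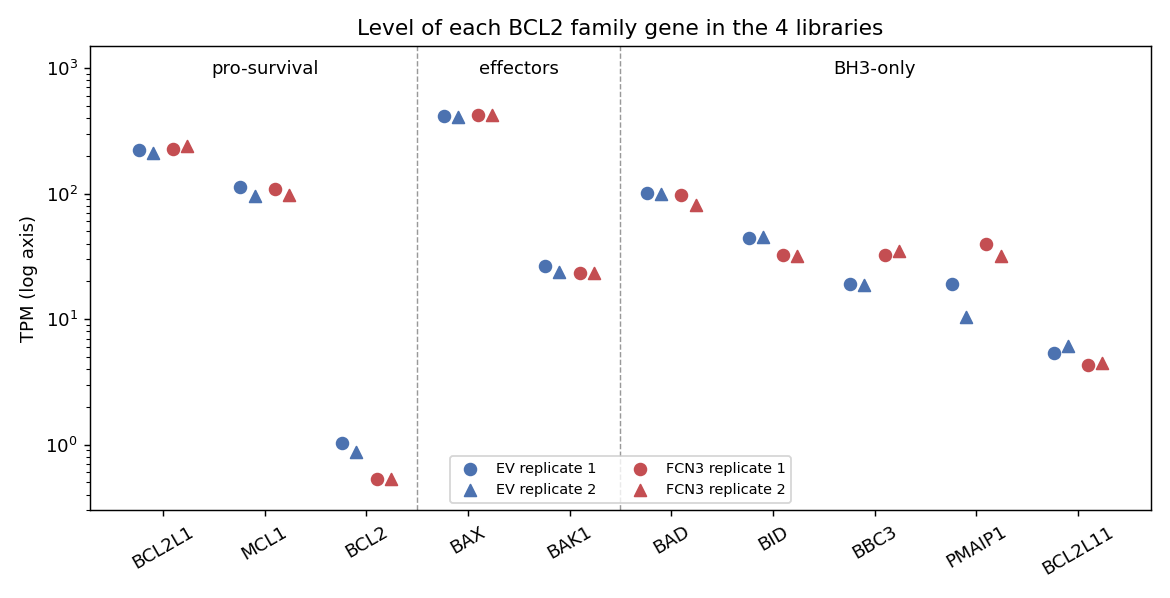
TPM of each of the 10 genes on a log axis, grouped by class, with EV libraries in blue, FCN3 libraries in red, circles for replicate 1 and triangles for replicate 2. BAX, BCL2L1 and MCL1 sit at nearly the same height in all 4 libraries, while BBC3 and PMAIP1 are higher and BID and BCL2L11 lower in both FCN3 libraries.

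Against EV, the quasi-likelihood test of edgeR called no member at a false discovery rate (FDR) of 0.01 without the replicate number in the model, where it called 0.965% of tested genes. At an FDR of 0.05 it called BBC3, beside 7.19% of tested genes. Unadjusted p was under 0.05 for 5 of the 10, beside 25.1% of all tested genes. With the replicate number as a block, edgeR called 5 of the 10, with BBC3, PMAIP1 and BCL2L1 higher and BID and BCL2L11 lower, beside 36.2% of tested genes (19.1% higher and 17.1% lower). The labels do not say whether a number marks a shared day or batch. With 4 libraries the block leaves little to estimate each gene's own spread, so its p-values lean on spread pooled over genes. DESeq2 called BBC3 and PMAIP1 without the block (7.91% of its tested genes were called) and BBC3, PMAIP1 and BID with it (15.8%). The median log2 fold change of the 10 members was 0.03, against 0.02 over all tested genes. In counts normalized by TMM and scaled to 1000000 a library (CPM), 7 of the 10 did not overlap between the groups (4 higher and 3 lower), where 54.5% of tested genes did not (28.0% higher and 26.5% lower).

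PMAIP1 encodes NOXA, a BH3-only protein that binds mainly MCL1, and had the highest log2 fold change of the 10. It stood at 18.3 and 10.0 CPM in EV replicates 1 and 2 and at 41.5 and 32.7 CPM in FCN3 replicates 1 and 2, from 667, 168, 1407 and 651 expected counts. The lower FCN3 library still exceeded the higher EV library, and replicate 1 was the higher of its group each time. Paired by number, the level was 2.27-fold higher with the FCN3 virus in replicate 1 and 3.26-fold higher in replicate 2. Without the block edgeR gave a log2 fold change of 1.35 ± 0.29 (SE, the standard error of the fit, adjusted p = 0.054). The block brought it to 1.39 ± 0.092 (SE, adjusted p = 1.4e-18 in edgeR). Its log2 fold change exceeded that of 98.1% of tested genes.

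BBC3 encodes PUMA, which can bind all pro-survival members of the family. Its libraries stood at 14.7 and 14.7 CPM in EV and at 27.8 and 28.1 CPM with the FCN3 virus, from 537, 246, 942 and 558 expected counts. Libraries of a group were nearly equal, and the groups lay far apart for that spread. The paired folds were 1.88 and 1.91. edgeR gave a log2 fold change of 0.92 ± 0.11 (SE), whose adjusted p of 0.015 missed the threshold. The block left it at 0.92 ± 0.088 (SE, adjusted p = 7.1e-13 in edgeR), and DESeq2 without the block gave an adjusted p of 2.9e-05. The 95% interval of the fold change ran from 1.56 to 2.30 without and from 1.68 to 2.14 with the block.

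BBC3 and PMAIP1 lie apart in the genome, BBC3 at chr19:47724079-47736023 (minus strand) and PMAIP1 at chr18:57567228-57571537 (plus strand) in GRCh37 coordinates. Their promoters are shown because both genes rose, beside that of BCL2L11, which fell, all these calls being from edgeR with the block. Each sequence is the 250 bases before a RefSeq start of transcription on GRCh38.p14, read 5′ to 3′ along the gene. Capitals mark a match on either strand to TGACGT (the cyclic AMP response element half-site, to which ATF factors bind), TGANTCA (the AP-1 site), CACGTG (the E-box) or CCAAT. The positions are chr18:59899746-59899995 for PMAIP1, chr19:47232668-47232917 on the minus strand for BBC3 and chr2:111120664-111120913 for BCL2L11.
PMAIP1: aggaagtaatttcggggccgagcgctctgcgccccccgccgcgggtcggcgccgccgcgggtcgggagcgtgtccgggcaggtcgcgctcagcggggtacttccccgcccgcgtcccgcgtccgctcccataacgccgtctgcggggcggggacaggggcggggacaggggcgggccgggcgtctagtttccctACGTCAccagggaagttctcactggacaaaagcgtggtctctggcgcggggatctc
BBC3: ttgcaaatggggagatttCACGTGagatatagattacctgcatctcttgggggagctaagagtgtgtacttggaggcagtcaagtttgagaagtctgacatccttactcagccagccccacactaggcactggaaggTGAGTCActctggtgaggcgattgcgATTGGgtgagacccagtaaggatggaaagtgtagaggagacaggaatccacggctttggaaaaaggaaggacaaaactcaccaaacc
BCL2L11: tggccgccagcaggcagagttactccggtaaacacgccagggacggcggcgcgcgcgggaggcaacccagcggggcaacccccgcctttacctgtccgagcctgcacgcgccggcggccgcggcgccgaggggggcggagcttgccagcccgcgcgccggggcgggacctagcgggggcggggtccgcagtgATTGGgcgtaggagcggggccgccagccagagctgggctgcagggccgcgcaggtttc

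The promoter windows shown for the genes that rose differ in make-up. Each comes from a single annotated start, though BBC3 lists 4 transcripts, and which start these cells use was not tested. Windows of the same gene can differ widely, those of BID running from 47.6% to 78.0% G and C. The PMAIP1 window holds 72.8% G and C with 36 CpG dinucleotides, and the BBC3 window 49.2% with 4, where the median of 35116 such windows was 58.0% G and C. PMAIP1 has the half-site TGACGT 56 to 51 bases before the start, on the reverse strand; this motif was added to the search after the promoters had been read, and 7.1% of all windows hold it. Its GC boxes (GGGCGG) number 4, and 42.6% of windows hold at least 1. BBC3 has an E-box 232 to 227 bases (6.34% of windows) and an AP-1 site 113 to 107 bases (6.57% of windows) before the start, and shares with BCL2L11 a CCAAT box, as do 11240 of the 35116 windows. Neither TGACGT nor the E-box was confined to the members that rose. BAD, which was not called, also holds TGACGT. The E-box also lies in windows of BAX, which was not called, and BID, which was called lower in edgeR with the block. No window of the 9 members found in the table holds TGATGNAA, the core of the ATF4 composite element (3.14% of windows), TGACGTG, the core of the unfolded protein response element (1.68%), TGACGTCA (1.65%), TTTGGCGC, a core of the E2F site (0.55%), or the ER stress element, searched by its consensus (0.074%). TGACGT overlaps TGACGTG and TGACGTCA in its letters. A match describes the letters of the window and does not show that a factor binds there.

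The remaining BH3-only genes went the other way or showed no call. BID, the protein that carries the signal of death receptors to mitochondria after cleavage by caspase 8, stood at 49.0 and 50.4 CPM in EV and at 38.8 and 37.8 CPM with the FCN3 virus. Both FCN3 libraries were below both EV libraries. Its paired folds were 0.792 and 0.749, and edgeR gave a log2 fold change of -0.38 ± 0.091 (SE, adjusted p = 0.073). The block gave -0.37 ± 0.068 (SE, adjusted p = 8.8e-06 in edgeR).

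BCL2L11 encodes BIM, an activator of BAX and BAK1. Its libraries stood at 14.2 and 15.1 CPM in EV and 11.1 and 11.2 CPM with the FCN3 virus, again without overlap. The paired folds of 0.783 and 0.745 were close to those of BID. edgeR put the log2 fold change at -0.39 ± 0.13 (SE, adjusted p = 0.15), and at -0.38 ± 0.11 once blocked (SE, adjusted p = 0.0023). DESeq2 did not call BCL2L11 in either form (adjusted p = 0.29, blocked 0.17). BCL2L11 lies on chromosome 2 of GRCh37 from 111876955 to 111926021, where the noncoding gene MIR4435-2HG runs over it on the opposite strand with overlapping exons, so that its counts are uncertain if reads were not assigned by strand. The libraries were made with a kit that keeps strand, but whether the counting used it is not given in the sources used here.

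BAD stood at 45.1 and 44.3 CPM in EV and 47.0 and 38.8 CPM with the FCN3 virus. The FCN3 libraries lay on either side of the EV libraries. Its log2 fold change of -0.06 had a 95% interval from -0.36 to 0.25, or -0.20 to 0.08 with the block. BAD shares exons on the opposite strand with GPR137, which had between 484 and 780 expected counts against 742 to 1642 for BAD, and the same limit holds for it.

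The effector genes showed no call under any of these fits. BAX stood at 151.5 and 152.4 CPM in EV and 167.8 and 166.4 CPM with the FCN3 virus. The FCN3 libraries were above the EV libraries, by 1.11-fold in replicate 1 and 1.09-fold in replicate 2. edgeR gave a log2 fold change of 0.14 in either form, with a 95% interval of -0.05 to 0.32 (adjusted p = 0.33) and, when blocked, of 0.03 to 0.24 (adjusted p = 0.028). BAK1 stood at 29.4 and 26.5 CPM in EV and 28.2 and 27.5 CPM with the FCN3 virus, the FCN3 values lying between those of EV. Its 95% interval with the block ran from -0.17 to 0.15 on the log2 scale.

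Among the pro-survival genes, BCL2L1 stood at 291 and 276 CPM in EV and at 320 and 334 CPM with the FCN3 virus. The groups did not overlap, and the paired folds were 1.10 and 1.21. edgeR gave a log2 fold change of 0.20 ± 0.080 (SE, adjusted p = 0.19), and of 0.20 ± 0.051 once blocked (SE, adjusted p = 6.9e-04). The blocked DESeq2 fit did not call it (adjusted p = 0.037). Exons of BCL2L1 overlap those of the noncoding gene ABALON on the opposite strand, so its counts carry the strand limit given for BCL2L11.

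MCL1 stood at 237 and 206 CPM in EV and 248 and 218 CPM with the FCN3 virus. The groups overlapped, and replicate 1 was the higher library in each. Its paired folds were 1.05 and 1.06, and the 95% interval of the log2 fold change with the block ran from -0.03 to 0.18. Exons of MCL1 overlap those of the noncoding gene ADAMTSL4-AS1 on the same strand, which counting by strand would not separate. In TPM, where the FCN3 transcript itself takes up 41618 and 44730 of the 1000000 TPM of a library, the group means of MCL1 lay in the opposite order, 104 ± 11.1 in EV and 102 ± 7.83 with FCN3 (SD, n = 2).

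BCL2 had 36 and 22 expected counts in EV and 21 and 15 with the FCN3 virus. Both FCN3 libraries were below both EV libraries in CPM (0.988 and 1.31 against 0.619 and 0.754). The log2 fold change of -0.71 had a 95% interval from -1.64 to 0.22, and with the block -0.72 with an interval from -1.41 to -0.03 (adjusted p = 0.080 in edgeR). At this depth a change of BCL2 could not be told from the spread between libraries after adjustment.

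**Figure D2:**
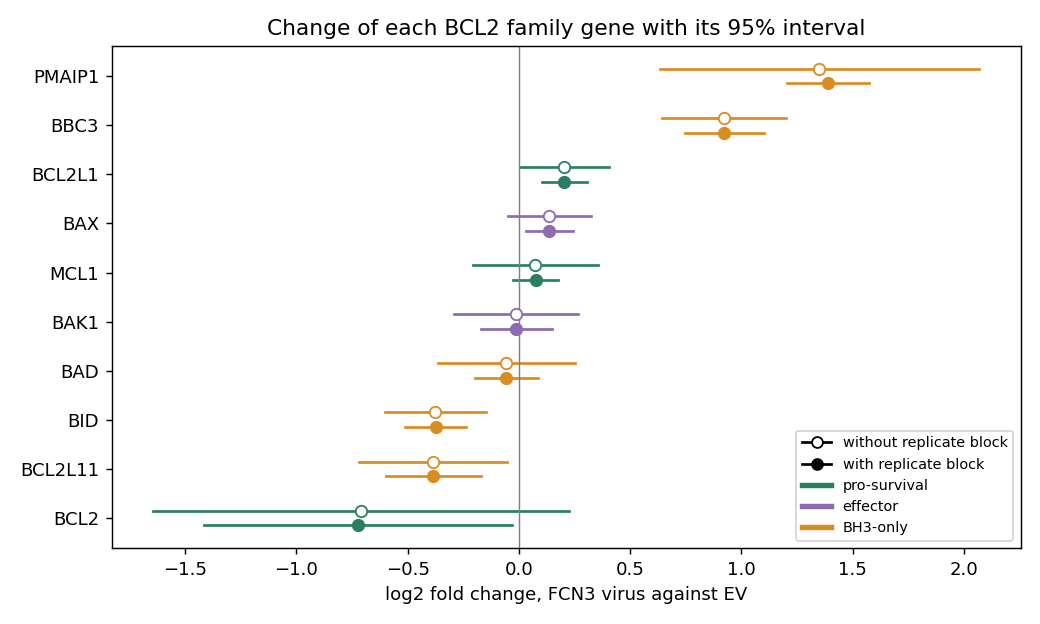
Log2 fold change, FCN3 virus against EV, of each gene (circles) with its 95% interval (bars), open without and filled with the replicate number as a block, coloured by class. PMAIP1 (1.35 and 1.39) and BBC3 (0.92 in each fit) stand apart to the right, and BID and BCL2L11 lie to the left of 0, so that the BH3-only class holds changes in both directions.

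The classes were then set against each other within each library, where no scaling between libraries enters. The summed TPM of the effectors and BH3-only genes was 1.86 and 1.98 times that of the pro-survival genes in EV replicates 1 and 2, and 1.94 and 1.85 times in FCN3 replicates 1 and 2. The groups overlapped, and the paired log2 differences had opposite signs (0.063 and -0.098). The ratio of the effectors alone to the pro-survival genes was 1.303 and 1.401 in EV and 1.330 and 1.308 with FCN3. For the BH3-only genes it was 0.560 and 0.581 against 0.615 and 0.544. No test was made on these sums, since the genes were chosen with results of these data known.

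Within the BH3-only class, the genes were then paired by the direction each had shown, after their values were seen, so the sums of these pairs restate those changes and are given as levels only. BBC3 and PMAIP1 together made up 20.2% and 16.2% of its summed TPM in EV and 35.0% and 36.2% with the FCN3 virus. Their sum over the pro-survival genes was 0.113 and 0.0940 in EV and 0.215 and 0.197 with FCN3, and that of BID and BCL2L11 was 0.148 and 0.167 against 0.110 and 0.108. In EV the order by TPM was BAD, BID, BBC3, PMAIP1 and BCL2L11 in both libraries, with BBC3 and PMAIP1 (18.9 ± 0.396 and 14.7 ± 6.12, SD, n = 2) not differing beyond their spread. With the FCN3 virus BAD and BCL2L11 kept their ranks, while PMAIP1, BBC3 and BID came to 35.7 ± 5.54, 33.8 ± 1.71 and 32.3 ± 0.354 TPM (SD, n = 2) and no longer differed beyond their spread. PMAIP1 per MCL1, its main binding partner as a protein, went from 0.169 and 0.107 to 0.366 and 0.327 in TPM. BBC3 per BCL2L11 went from 3.57 and 3.02 to 7.59 and 7.91.

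The balance depended on how the genes were averaged. When each gene was given the same weight (the mean of log2 TPM over a class), the log2 ratio of pro-apoptotic to pro-survival genes was 0.33 and 0.37 in EV and 0.78 and 0.73 with FCN3, a difference of 0.41 against -0.018 for the sums. Leaving out BCL2, which rests on 15 to 36 counts a library, brought this difference to 0.11. Leaving out BBC3 and PMAIP1 instead brought it to 0.032. Both of these were tried after the values were seen.

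**Figure D3:**
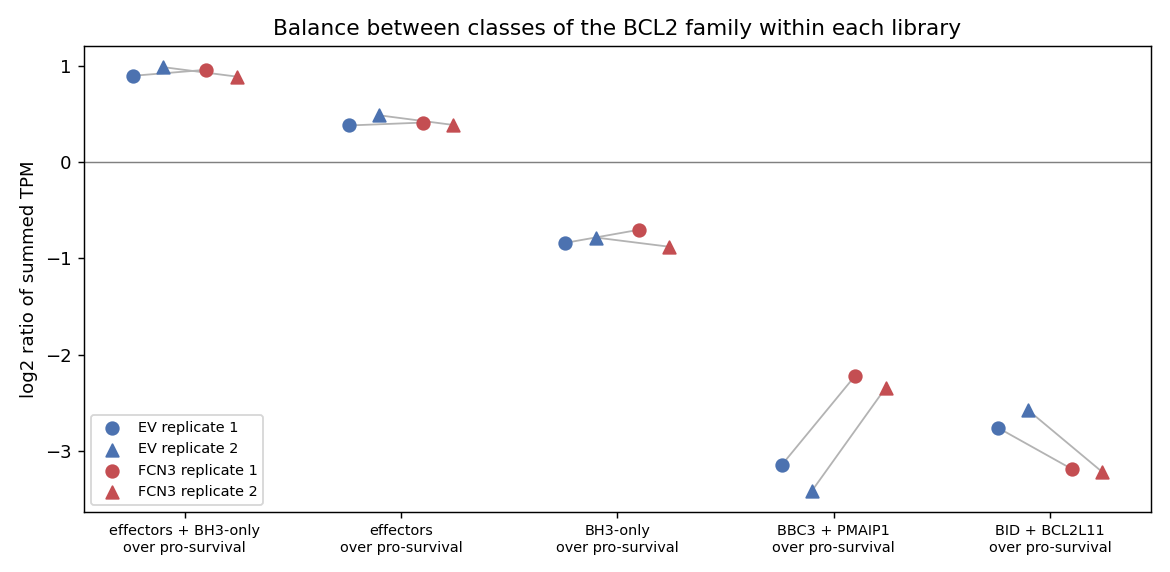
Log2 ratio of summed TPM between classes within each library, with EV in blue, FCN3 in red, circles for replicate 1, triangles for replicate 2 and grey lines joining libraries of the same number. The left 3 ratios overlap between the groups, and the right 2, whose genes were paired by their direction after the values were seen, show the levels of those pairs.

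The deposited tables give for each gene a transcript length in bases, weighted by the estimated abundance of its transcripts, which shifts only when their mix shifts. Of the 10 members, 8 list several transcripts, up to 18 for BCL2L11. Between the groups, 4 of the 8 (BCL2L1, BID, BCL2L11 and BAD) did not overlap, all shorter with the FCN3 virus, where 34.1% of 6059 tested genes with several transcripts did not overlap (18.5% shorter). For BCL2L1, whose long and short forms have opposing actions on survival, the length was 2553 and 2549 bases in EV and 2546 and 2539 with FCN3. The gap between its groups was smaller than the distance between the libraries within either group. For BID the length was 2190.78 and 2188.74 bases in EV against 2180.26 and 2187.65 with FCN3. Here too the gap between the groups was smaller than the distance between the libraries within either group. For BAD it was 988.63 and 988.61 bases against 984.71 and 987.61, and the gap was smaller than the distance between the FCN3 libraries. For BCL2L11 it was 5009 and 4609 bases against 4524 and 4509, and the gap between the groups was smaller than the distance between the EV libraries. The lengths of MCL1, BAX and BBC3 overlapped. With an offset from effective lengths in edgeR without the block, no member changed direction. BCL2L11 shifted most, from a log2 fold change of -0.39 (adjusted p = 0.15 in edgeR) to -0.29 (adjusted p = 0.29 in edgeR).

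Other genes of the pathway were counted from lists. In the wider BCL2 family, 9 of 13 genes were tested and edgeR called 0 without the block (0.965% of all tested genes), DESeq2 2, BMF and BNIP3L (7.91%), and edgeR with the block 5 (36.2%). BMF, a BH3-only gene that senses loss of attachment, stood at 0.49 and 0.74 TPM in EV and 1.56 and 2.04 with FCN3 (log2 fold change 1.70 with the block, adjusted p = 1.8e-09 in edgeR). BNIP3L, a mitophagy receptor with a BH3-like region, stood at 32.7 and 31.2 against 51.6 and 52.7 TPM (0.81, adjusted p = 7.2e-17 in edgeR with the block). BCL2L13, another mitophagy receptor, was 0.36 higher in that fit. The pro-survival gene BCL2A1 fell by 0.52 on the log2 scale, from 50.3 and 58.5 to 34 and 35.95 TPM (adjusted p = 5.5e-06 in edgeR with the block), and BCL2L12 fell by 0.41. HRK, a BH3-only gene at 0.94 TPM or less, was not tested. The median of the 9 was 0.11 in edgeR without the block.

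Downstream of the members, 15 genes of the apoptosome, the caspases and mitochondrial release had a median log2 fold change of -0.02. Without the block edgeR called none of them, beside 0.965% of all tested genes, and DESeq2 none, beside 7.91% of its tested genes. With the block edgeR called 4, a smaller share than the 36.2% of all tested genes. Among these 4 were CYCS (cytochrome c, 0.21), which was higher, and CASP2 (-0.39) and VDAC3 (-0.28), which were lower. APAF1 and CASP9, which form the apoptosome, were at 0.02 and 0.11 without a call. Among 7 inhibitors of apoptosis, XIAP, which blocks caspases, stood at 14.75 and 10.99 TPM in EV and 23.2 and 18.8 with FCN3 (log2 fold change 0.82, adjusted p = 5.3e-17 in edgeR with the block). BIRC5 (survivin), which also serves in cell division, fell from 171 and 144 to 89.8 and 80.6 TPM (-0.78, adjusted p = 4.0e-18 in edgeR with the block), and BIRC3 fell by 0.24. None of the 7 was called by edgeR without the block (0.965% of all tested genes). DESeq2 called XIAP and BIRC5 (7.91% of all its tested genes), and edgeR with the block called 3 of the 7 (36.2%). Of 4 tested genes for turnover of the MCL1 protein, edgeR with the block called the ubiquitin ligase genes FBXW7 (0.54) and HUWE1 (0.17), beside the same 36.2%. Without the block edgeR called none of the 4, beside 0.965%.

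Among 11 regulators of transcription of the members, edgeR without the block called DDIT3, ATF3 and TRIB3, all higher, beside 0.965% of all tested genes. DDIT3 stood at 16.1 and 17.7 TPM in EV and 345.8 and 317.9 with FCN3, ATF3 at 3.5 and 5.55 against 31.0 and 32.1, and TRIB3, a pseudokinase induced by ATF4 and DDIT3, at 41.7 and 39.1 against 251 and 237. With the block ATF4 (0.61), MYC (0.42) and FOXO3 (0.37) were called higher as well and E2F1 (-0.76) lower, which makes 7 of 11 beside 36.2%. FOXO3 has a near-identical copy, FOXO3B, so its change is uncertain.

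**Figure D4:**
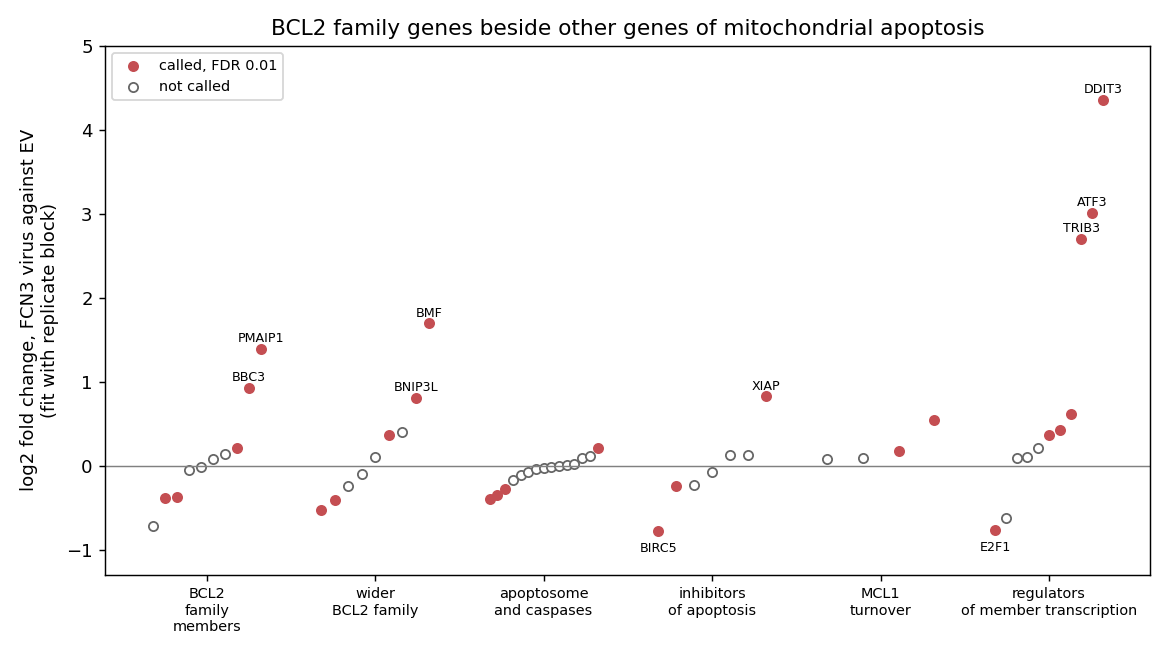
Log2 fold change, FCN3 virus against EV, in edgeR with the replicate block, for the tested genes of the members and of 5 further lists, filled red where called at an FDR of 0.01 and open where not. The members run from -0.72 (BCL2) to 1.39 (PMAIP1), while DDIT3 among the regulators reaches 4.36.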

How the data were processed

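The authors trimmed the reads with Fastx_toolkit, aligned them to hg19 with STAR 2.6.1d and estimated abundance with RSEM (the tables list RefSeq transcripts); libraries were stranded, and the strand setting of the counting is not given in the sources used here. The deposited expected counts are estimated per gene and not normalized. The deposited TPM are scaled by RSEM for length and depth. The deposited tables also give, in bases, a transcript length weighted by abundance; FPKM were not used.

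Expected counts were rounded and tested in R 4.3.3 with edgeR 4.0.16 (TMM, filterByExpr, quasi-likelihood test, Benjamini-Hochberg adjustment over 14099 of 25192 genes, FDR threshold 0.01). Standard errors were obtained by dividing the size of the log2 fold change by the square root of F, and intervals use the t distribution of that test. CPM are TMM-normalized. DESeq2 1.42.0, the tool of the study's methods, was an alternative, its filter set to the same threshold. Scripts were tested on simulated data. The settings tried were the replicate block in both tools, RLE factors, other count filters, FCN3 left out, an offset from effective lengths, an FDR of 0.05 and each library left out.

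All 10 members are named. Genes of the other lists are named where called without or with the block; some items are not reported here. The members and lists were chosen with earlier results of these data known. The labels number replicates 1 and 2 in each group and state no shared day or batch. Libraries of the same number were paired as an alternative reading. Gene locations come from GENCODE v44 on GRCh37, which is hg19. Promoter windows come from RefSeq on GRCh38.p14. Totals ran from 16353554 to 35733735 expected counts per library, which puts the floor of 3 counts between 0.0823 and 0.179 CPM; it covers counting error only.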

Additional observations from a re-analysis of the deposited data

How the results depend on the processing

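The calls turned on the replicate block and the tool. Over all genes, 136 calls in edgeR without the block became 5103 with the replicate block, 1046 in DESeq2, 2209 in DESeq2 with the block and 1014 at an FDR of 0.05, and ranged from 92 to 267 with each library left out (267 without EV replicate 2). Over the members, 0 calls became 5 with the replicate block, 2 in DESeq2, 3 in DESeq2 with the block and 1 (BBC3) at an FDR of 0.05, and ranged from 0 to 1 with each library left out. The 1 is PMAIP1 without EV replicate 1 (log2 fold change 1.90, adjusted p = 0.006 in edgeR). Same-numbered libraries deviated together: over 8310 genes the replicate 1 minus 2 differences of the groups had r = 0.806 (a value across genes, not across independent replicates). With 2 numbers only, this is a hint from the data and not from the design. Replicate 1 was also the deeper library in each group, so replicate number and depth cannot be told apart here.

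Direction changed in 5 values, all of members near 0 with 1 library left out: MCL1 to -0.031 (EV replicate 2) and -0.024 (FCN3 replicate 1), BAK1 to 0.079 (EV replicate 1) and 0.0083 (FCN3 replicate 2), and BAD to 0.071 (FCN3 replicate 2). The cause was not tested. With each library left out MCL1 ran from -0.031 to 0.19, BAK1 from -0.087 to 0.079 and BAD from -0.21 to 0.071. BBC3, PMAIP1, BCL2L1, BAX, BID, BCL2L11 and BCL2 kept their direction in all 12 alternatives. The class ratio differed by -0.018 between the groups (log2), by 0.41 with equal weight per gene, by 0.11 when BCL2 was then left out, and by -0.063 to 0.027 with each library left out. An exact two-sided permutation test of 2 against 2 libraries cannot give a p below 0.333.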

Other observations

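Between replicate numbers, with the condition in the model, edgeR called 2 of the 10 members at an FDR of 0.01. This was no larger a share than the 22.2% of all tested genes. PMAIP1 was lower in replicate 2 (log2 difference -0.55, adjusted p = 4.2e-06 in edgeR), by 0.87 between the EV libraries and 0.34 between the FCN3 libraries. MCL1 was lower in replicate 2 as well (-0.20, adjusted p = 0.0019 in edgeR), by 0.21 and 0.19.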
